A study of Mus musculus with 9 samples.

Results

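Protein import into mitochondria was followed through 42 genes of the deposited count table, out of 54532 genes in all and 22046 protein-coding ones. They were taken by name alone: every protein-coding gene whose symbol starts with Timm or Tomm and a number, together with 17 further genes for import, processing and folding (Samm50, Mtx1, Mtx2, Chchd4, Gfer, Hspa9, Hspd1, Hspe1, Grpel1, Grpel2, Dnajc19, Pam16, Pmpca, Pmpcb, Oxa1l, Lonp1 and Clpp). All libraries came from 3T3-L1, a mouse fibroblast line that turns into fat-storing cells under a hormone cocktail, and all cultures had been held at confluence for 3 days. Undifferentiated cells received no cocktail. Differentiated cells received insulin (10 μg/mL), the PPARγ agonist rosiglitazone (1 μM), the glucocorticoid dexamethasone (1 μM) and the phosphodiesterase inhibitor 3-isobutyl-1-methylxanthine (0.5 mM) in a medium with added lysine, and Lysfree cells received the same cocktail in that medium without added lysine. Each group had 3 libraries made from polyadenylated RNA. No source used here says whether the 3 came from separate cultures, so each p-value measures the spread between these libraries, which may be technical. The base medium and the serum of the cocktail groups also differed from those of the confluent culture, and Undifferentiated cells differ from both other groups in the cocktail and the medium at once. The cocktail followed the time at confluence, and the paper describes 3 days of lysine-free culture for its medium measurements. Its text does not say when Undifferentiated cells were collected, so time in culture may differ between the groups as well.

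Nearly all mitochondrial proteins are encoded in the nucleus, made on cytosolic ribosomes and brought in by these machines. Precursors pass the outer membrane through the TOM complex. From there the presequence translocase and its ATP-driven motor carry proteins with a cleavable leader into the matrix, the small TIM chaperones escort membrane proteins across the intermembrane space, the carrier translocase inserts metabolite carriers, and the SAM complex inserts barrel proteins into the outer membrane. In the matrix the leader is cut off, and the chaperonin Hsp60 with its lid Hsp10 folds the product or proteases remove it. Adipocyte differentiation is known for a large gain in mitochondrial mass, which has to be supplied through this route.

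The libraries held 15880144 to 21806693 counts over genes, and the members took 0.380 to 0.397% of them in Undifferentiated, 0.919 to 0.939% in Differentiated and 0.560 to 0.588% in Lysfree cells. Levels are given in FPKM, counts scaled by gene length and library total as the deposited table lists them, and fold changes on the log2 scale come from the counts. The 8 adipocyte markers summed to 314 to 395 FPKM in Undifferentiated, 6890 to 7245 in Differentiated and 292 to 408 in Lysfree libraries, and the 6 preadipocyte markers to 3452 to 3783, 634 to 653 and 906 to 966. Macrophage markers summed to at most 5.01 FPKM, and endothelial, epithelial and muscle markers to at most 1.12. The adipocyte sum therefore rose with the cocktail and fell without lysine, as most members described here did. The part of these markers in those results was not tested. Between Lysfree and Undifferentiated cells the 8 split on the log2 scale. Cd36 (2.18) and Lpl (0.40) were higher at an edgeR adjusted p under 0.05, and Fabp4 did not pass. Adipoq (-3.74), Cidec (-1.56), Cebpa (-1.43), Plin1 (-0.87) and Pparg (-0.65) were lower. Of the preadipocyte markers Thy1 was higher there (0.39) and the rest lower. In bulk RNA a higher level per cell and a larger share of one kind of cell cannot be told apart. The library Lysfree 1 stood apart from the other two of its group: its counts differed from theirs by a chi-square of 39.6 and 40.7 per degree of freedom, against 2.67 between Lysfree 2 and Lysfree 3 and 2.85 to 11.3 within the other groups. Results that turn on it are given with and without it. A fit without it rests on Lysfree 2 and Lysfree 3, which lie close together, and has smaller standard errors. For Hspd1 in Lysfree against Differentiated cells the standard error was 0.030 without it and 0.070 with all libraries. The p-values of such fits may be too small and are not used to rank genes.

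Promoters are shown first for the chaperonin pair, because Hspd1 (Hsp60) and Hspe1 (Hsp10) lie head to head on chromosome 1 and yet had very different fold changes when lysine was left out. Hspd1 (ENSMUSG00000025980) occupies chr1:55077835-55088243 on the minus strand and Hspe1 (ENSMUSG00000073676) chr1:55088132-55091307 on the plus strand, in the mouse build mm10 that the table uses. RefSeq windows of 250 bases before to 50 bases after a transcription start (GRCm38.p6, the same build) were matched by symbol for 37 of the 42 members. Grpel2, Hspa9, Timm21, Tomm40l and Tomm7 had no match. The Hspd1 start at position 55087932 lies 216 bases from the Hspe1 start at position 55088148, and their windows, chr1:55087883-55088182 on the minus strand and chr1:55087898-55088197 on the plus strand, have 285 bases in common. RefSeq gives a further Hspd1 start at position 55088243, which is the end of the gene in the table. The window of that start has only 4 bases in common with the Hspe1 window. Read 5′ to 3′, with the letters of a heat shock element core (GAANNTTC) in capitals, the windows of the Hspd1 start at position 55087932 and of Hspe1 are:
Hspd1: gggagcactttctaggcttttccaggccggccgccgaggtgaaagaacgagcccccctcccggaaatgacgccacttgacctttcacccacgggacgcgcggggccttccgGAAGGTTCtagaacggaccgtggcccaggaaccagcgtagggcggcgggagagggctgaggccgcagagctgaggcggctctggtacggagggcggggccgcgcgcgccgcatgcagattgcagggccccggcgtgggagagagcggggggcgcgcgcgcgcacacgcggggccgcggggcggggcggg
Hspe1: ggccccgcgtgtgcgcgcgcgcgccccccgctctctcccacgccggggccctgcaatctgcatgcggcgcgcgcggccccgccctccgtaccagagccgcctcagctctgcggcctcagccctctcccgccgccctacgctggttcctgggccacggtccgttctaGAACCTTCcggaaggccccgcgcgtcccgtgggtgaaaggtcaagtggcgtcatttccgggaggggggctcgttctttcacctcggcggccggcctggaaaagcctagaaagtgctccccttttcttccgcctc

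The capitals mark the same 8 bases of the genome, chr1:55088064-55088071, read on opposite strands, starting at base -139 from this Hspd1 start and at base -84 from the Hspe1 start. The window of the further Hspd1 start holds no such core. The core stood in the windows of 3 of the 37 members, Timm9 being the other, or 8.11%, and in 9.04% of all 27025 genes with a window. Each motif was searched on both strands. The core for nuclear respiratory factor 1, an activator of nuclear genes for mitochondria (GCGCNTGCG), stood in 9 of the 37, or 24.3%, against 7.12% of all genes. The ETS core (CCGGAAGT) stood in 8, or 21.6%, against 4.31%, and the E-box (CACGTG) in 7, or 18.9%, against 8.09%. The ATF4 element (TGATGCAA) was in none of the 37, and in 1.03% of all genes. The shares of all genes cover every gene with a window, whatever its type or level. The members are protein-coding and mostly expressed, so the sets are unlike, and the differences between them were not tested. The 9 with the nuclear respiratory factor 1 core were Chchd4, Hspd1 at its second start, Oxa1l, Pam16, Timm13, Timm29, Timm50, Timm8b and Tomm20. The short stretches around it are shown for the 5 of them whose level in every library is given further on, with the core or its reverse complement in capitals:
Chchd4, chr6:91473599-91473631, minus strand: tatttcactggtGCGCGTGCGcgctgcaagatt
Hspd1, chr1:55088281-55088313, minus strand: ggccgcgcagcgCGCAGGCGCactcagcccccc
Oxa1l, chr14:54360806-54360838, plus strand: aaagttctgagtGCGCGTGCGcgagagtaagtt
Timm29, chr9:21592751-21592771, plus strand: ctattgctctatGCGCGTGCG
Timm8b, chr9:50603907-50603939, plus strand: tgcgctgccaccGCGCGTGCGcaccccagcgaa

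These 5 carried the same core, and their changes were not all alike: Chchd4, Hspd1, Timm8b and Oxa1l rose with the cocktail and were lower in Lysfree than in Differentiated cells, Oxa1l also lower than in Undifferentiated cells, and Timm29 was slightly higher in Lysfree cells. A match is a match of letters only.

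Most genes of the import machinery rose during differentiation and were lower again when lysine was left out. Of the 42 members, 39 reached a mean of 1 CPM (counts scaled to a common library total, regardless of gene length) in each comparison, and the other 3 (Tomm6, Tomm20l and Timm8a2) were at or near 0. Between Differentiated and Undifferentiated cells, 35 were higher and 1, Tomm34, was lower by edgeR's quasi-likelihood test at an adjusted p under 0.05, while 23.0% of the 24402 genes tested were higher and 23.2% lower. At the same CPM minimum these shares were 38.6% and 39.0%. The median log2 fold change of the 39 was 1.05, against -0.01 over all genes at that minimum. A rise of at least 2-fold was called in 21, in 10.4% of all genes tested and in 1868 of the 12761 at 1 CPM. In 34 members every Differentiated library lay above every Undifferentiated one. This held for 26.2% of all genes and for 5240 of the 12761 at 1 CPM.

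Lysfree cells had the same cocktail and kept part of this rise. Against Undifferentiated cells 22 members were higher and 1, Oxa1l, was lower, where 18.0% and 17.1% of the 23994 genes tested were (32.2% and 28.1% at 1 CPM). At least 2-fold higher were 7 (Timm8a1, Timm10, Hspe1, Chchd4, Timm9, Tomm70a and Grpel2). So were 5.52% of all genes and 1055 of the 12581 at 1 CPM. The median log2 fold change of the members was 0.37, against 0.04 over all genes. In 22 members the Lysfree libraries all lay above the Undifferentiated ones (20.2% of all genes, and 4212 of the 12581 at 1 CPM). Against Differentiated cells 31 members were lower and 4 higher, where 18.8% and 19.7% of the 24130 genes tested were (30.4% and 34.6% at 1 CPM). The median there was -0.66, against 0.05. A fall of at least 2-fold was called in 7 members (Hspd1, Grpel1, Tomm40, Samm50, Tomm40l, Timm50 and Timm44). It was called in 10.5% of all genes and in 1842 of the 12575 at 1 CPM, a share not far from that of the members. In 32 members every Lysfree library lay below every Differentiated one, as in 25.3% of all genes and 4682 of the 12575 at 1 CPM. Without Lysfree 1 the counts were 32 lower and 5 higher, and 25 higher and 1 lower against Undifferentiated cells. The shares of all genes called in these fits are not given. Smaller standard errors can let more genes pass, so the change in counts is not read as a result about the members. Both lists of members changed at least 2-fold then still held 7 genes, with Timm23 (1.05) in place of Tomm70a (0.98) against Undifferentiated cells and Mtx2 (-1.10) in place of Timm44 (-0.97) against Differentiated cells. The 3 comparisons share their libraries pairwise, so the calls in one are not independent of those in another. By the 3 calls together, 18 members rose with the cocktail, stayed above the undifferentiated level without lysine and were below the Differentiated level. In 12 more the rise was called, the fall was called, and no difference between Lysfree and Undifferentiated cells was. These patterns were counted among the members only. The share of all genes with the same patterns is not given, so the 2 counts describe the members and do not set them apart.

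**Figure D1:**
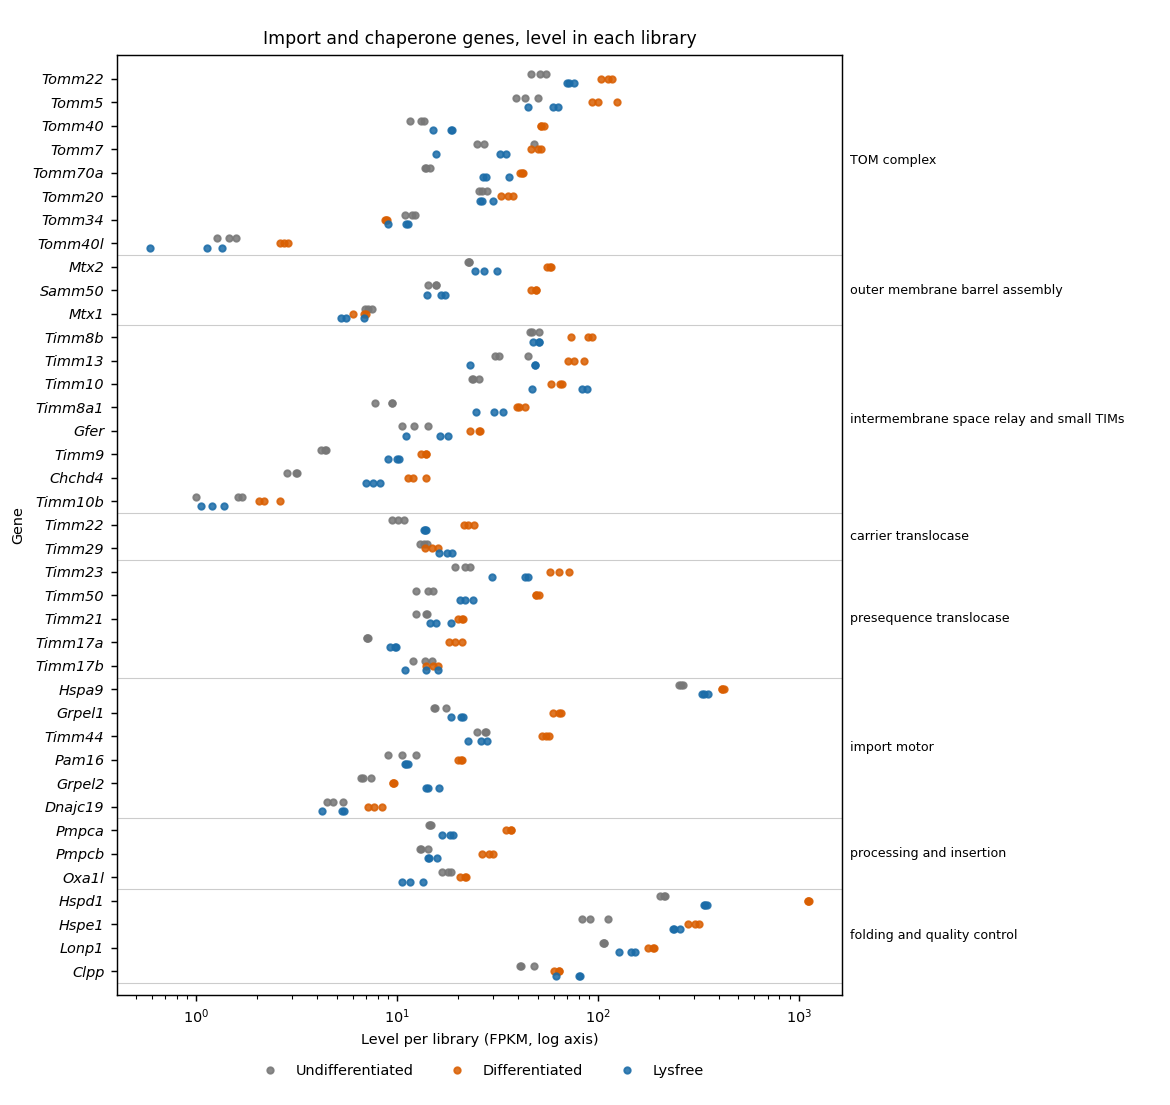
Level of the 39 members at a mean of at least 1 CPM in each of the 9 libraries, in FPKM on a log axis, grouped by role. Each point is a library. For Hspd1 the Differentiated libraries lie between 1108 and 1128 FPKM and the Lysfree libraries between 339 and 348.

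**Figure D2:**
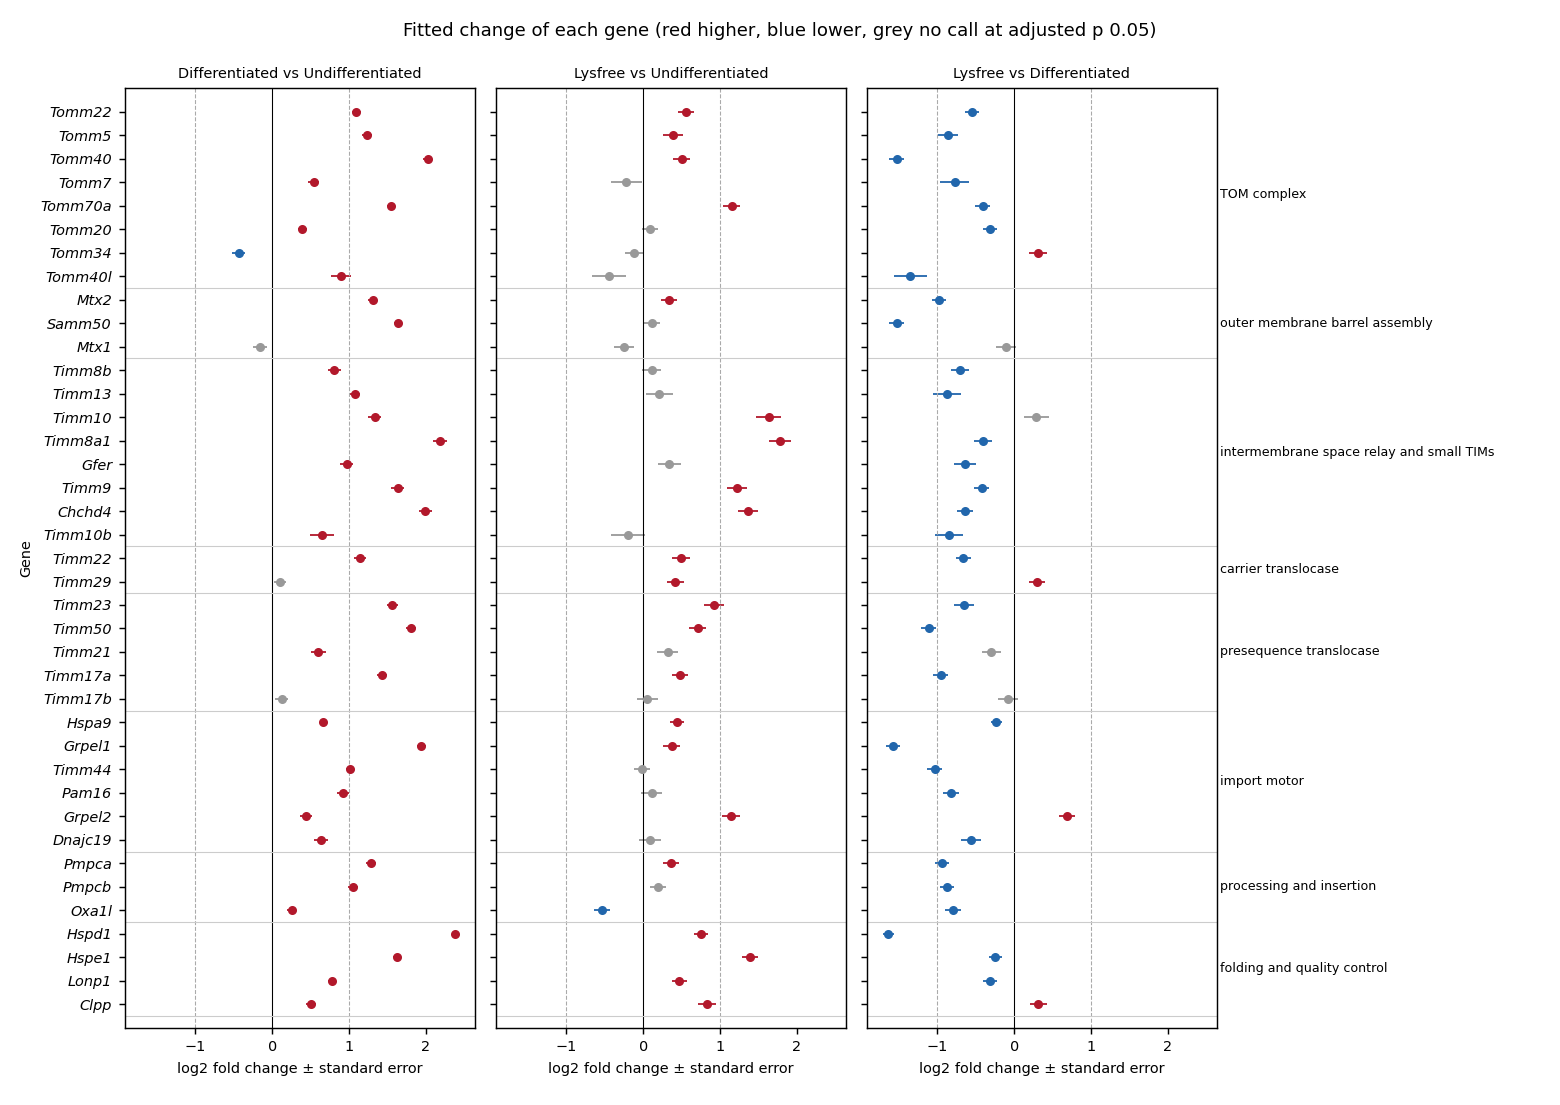
Log2 fold change of the same 39 members in the 3 comparisons, with bars of 1 standard error from edgeR and dashed lines at a 2-fold change. In the left panel 35 points are red, and in the right panel 31 are blue and 4 red.

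At the entry gate the gene of the pore had the largest rise with the cocktail and the largest fall without lysine. Tomm40 (ENSMUSG00000002984, chr7:19701313-19715438), the channel of the TOM complex, stood at 11.54, 13.1 and 13.6 FPKM in the Undifferentiated libraries, at 52.3, 51.9 and 54.0 in the Differentiated and at 15.0, 18.6 and 18.7 in the Lysfree libraries. The 3 groups did not overlap, with Lysfree cells just above the undifferentiated range. The log2 fold change was 2.02 ± 0.059 with the cocktail and -1.53 ± 0.10 for Lysfree against Differentiated cells (± SE, edgeR adjusted p 5.2e-11). Its minor paralog Tomm40l measured 1.45, 1.58 and 1.26 FPKM in Undifferentiated, 2.72, 2.61 and 2.85 in Differentiated and 0.587, 1.34 and 1.12 in Lysfree libraries. Here the Lysfree libraries overlapped the Undifferentiated ones and Lysfree 1 was the lowest of all, with a log2 fold change of -1.35 ± 0.21 against Differentiated cells (edgeR adjusted p 2.0e-05). Of the exonic bases of Tomm40l, 64.3% are also exons of Nr1i3 on the opposite strand, and whether counting used the strand is not given in the sources used here.

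The receptors had smaller fold changes with the cocktail. Tomm20, which binds the leader peptide, had means of 26.5 ± 1.25, 35.5 ± 2.55 and 27.3 ± 2.18 FPKM in Undifferentiated, Differentiated and Lysfree cells (± SD, n = 3). Tomm22, the central receptor, had 50.9 ± 4.38, 111 ± 6.96 and 72.7 ± 3.28, and Tomm70a, the receptor for carrier precursors handed over by cytosolic chaperones, 14.0 ± 0.423, 41.8 ± 0.636 and 30.1 ± 5.05. Tomm22 and Tomm70a stayed above every Undifferentiated library without lysine and Tomm20 did not. The log2 fold change between Lysfree and Undifferentiated cells was 1.15 ± 0.11 for Tomm70a (edgeR adjusted p 9.5e-11) and 0.088 ± 0.10 for Tomm20 (edgeR adjusted p 0.53). The fall of Tomm20 from Differentiated to Lysfree cells, -0.31 ± 0.092, did not pass the test without Differentiated 3 (edgeR adjusted p 0.069). The small subunits Tomm5 and Tomm7, which stabilise the complex, fell by 0.86 and 0.77 on the log2 scale from Differentiated to Lysfree cells. Both are short genes and lowest within their group in Lysfree 1. The fall of Tomm7 did not pass with limma on log2 FPKM at either pseudocount (adjusted p 0.068 and 0.059), and its rise with the cocktail did not with DESeq2 or limma (adjusted p 0.075 to 0.12). Against Undifferentiated cells Tomm5 was called higher, at 0.39 ± 0.13, but not without Undifferentiated 1, Undifferentiated 3, Lysfree 2 or Lysfree 3 (edgeR adjusted p up to 0.14), nor with DESeq2, either low-count filter or limma (adjusted p 0.063 to 0.20). Tomm7 had no call there with all libraries and was called lower without Undifferentiated 1 or Lysfree 2 (-0.39 and -0.42). Tomm34, a cytosolic co-chaperone rather than a membrane subunit, went against the rest: it measured 12.2, 10.96 and 11.9 FPKM in Undifferentiated, 8.80, 8.71 and 8.94 in Differentiated and 8.98, 11.1 and 11.3 in Lysfree libraries. Its fall with the cocktail was -0.43 ± 0.085 (edgeR adjusted p 9.7e-07). The higher level in Lysfree than in Differentiated cells, 0.31 ± 0.12 with an edgeR adjusted p of 0.047, no longer passed the test when any one of Differentiated 1, 2 or 3 or Lysfree 2 or 3 was left out (adjusted p up to 0.18), nor with DESeq2, edgeR with DESeq2-type (RLE) size factors, at least 10 counts in every library, the replicate block or limma (adjusted p 0.066 to 0.13).

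Tomm6, a small subunit, was listed at no more than 0.383 FPKM in any library. Of its exonic bases, 84.2% are shared with exons of Usp49 and Tomm6os on the opposite strand and of Gm21981 on its own, and the part of shared reads in this level was not tested. Tomm20l and Timm8a2 reached at most 0.18 and 0.176 FPKM. No call was made for any of the 3.

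In the outer membrane the barrel inserter and one of its partners changed in the same directions as the pore. Samm50 (ENSMUSG00000022437, chr15:84192241-84217267), the core of the SAM complex, stood at 14.3, 15.6 and 15.7 FPKM in Undifferentiated, 48.9, 49.1 and 46.4 in Differentiated and 14.1, 17.3 and 16.5 in Lysfree libraries. The Lysfree and Undifferentiated libraries overlapped, and both lay far below the Differentiated ones. The log2 fold changes were 1.64 ± 0.056 and, for Lysfree against Differentiated cells, -1.53 ± 0.095 (edgeR adjusted p 2.8e-11). Without Lysfree 1, Samm50 was called slightly higher in Lysfree than in Undifferentiated cells, at 0.18 (edgeR adjusted p 0.021). Mtx2, a metaxin on the cytosolic face of the complex, measured 22.5, 22.7 and 22.7 FPKM in Undifferentiated, 57.4, 55.9 and 58.0 in Differentiated and 31.5, 24.5 and 27.2 in Lysfree libraries, and its 3 groups did not overlap. Its small rise in Lysfree against Undifferentiated cells, 0.34 ± 0.11 (edgeR adjusted p 0.0099), was lost without Undifferentiated 3 (adjusted p 0.069) and with either limma fit (adjusted p 0.075 and 0.072). Mtx1, the partner metaxin, measured 7.49, 7.17 and 6.93 FPKM in Undifferentiated, 6.997, 6.01 and 6.81 in Differentiated and 5.57, 6.80 and 5.23 in Lysfree libraries. Its groups lay close together and no comparison gave a call, the log2 fold change with the cocktail being -0.16 ± 0.091 (edgeR adjusted p 0.16). Exons of Thbs3 and Gm43737 on the opposite strand cover 30.1% of the exonic bases of Mtx1.

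The 8 intermembrane space genes at 1 CPM all rose with the cocktail (Timm10b not with limma on log2(FPKM + 1), adjusted p 0.0515), and in Lysfree against Undifferentiated cells 4 of them were higher, by 1.22 to 1.78 on the log2 scale, and the other 4 had no call. Of all genes at 1 CPM, 38.6% were higher with the cocktail and 32.2% were higher in Lysfree than in Undifferentiated cells. With 8 genes, a count of 4 is not far from the latter share. Chchd4 (ENSMUSG00000034203), the oxidoreductase that traps small cysteine-rich proteins, measured 3.18, 3.13 and 2.81 FPKM in Undifferentiated, 11.9, 11.4 and 13.9 in Differentiated and 7.57, 7.02 and 8.21 in Lysfree libraries. The Lysfree libraries lay between the other groups with no overlap. The log2 fold changes were 1.99 ± 0.083 with the cocktail and 1.37 ± 0.13 with the cocktail but no lysine (edgeR adjusted p 1.3e-10). Gfer, the sulfhydryl oxidase that recharges Chchd4, had means of 12.4 ± 1.86, 24.8 ± 1.54 and 15.1 ± 3.61 FPKM, and no difference was called between Lysfree and Undifferentiated cells (edgeR adjusted p 0.088) unless Undifferentiated 2 or Lysfree 1 was left out (0.46 and 0.49, called higher).

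The chaperones that Chchd4 imports split in their response. Timm8a1 (chrX:134537256-134541865) rose from 7.73, 9.43 and 9.40 FPKM in Undifferentiated to 39.3, 40.4 and 43.0 in Differentiated libraries and measured 24.6, 30.2 and 33.5 in Lysfree libraries. Its 1.78 ± 0.14 on the log2 scale was the largest rise of any member in Lysfree against Undifferentiated cells (edgeR adjusted p 2.3e-12). Its relative Timm8b measured 45.8, 50.6 and 46.7 FPKM in Undifferentiated, 89.2, 73.3 and 93.2 in Differentiated and 47.7, 50.6 and 51.0 in Lysfree libraries, and the Lysfree and Undifferentiated ones overlapped. Timm9 and Timm10 form one ring-shaped chaperone. Timm9 measured 4.19, 4.40 and 4.35 FPKM in Undifferentiated, 13.9, 13.1 and 14.0 in Differentiated and 9.02, 10.2 and 9.94 in Lysfree libraries, Lysfree lying between the other groups. Timm10 (chr2:84826997-84830213) measured 23.5, 25.7 and 23.9 FPKM in Undifferentiated, 66.0, 58.0 and 64.3 in Differentiated and 46.8, 83.4 and 88.5 in Lysfree libraries, with Lysfree 1 below all Differentiated libraries and Lysfree 2 and 3 above them. The log2 fold change of Timm10 between Lysfree and Differentiated cells was 0.28 ± 0.16 (edgeR adjusted p 0.20), and without Lysfree 1 it was 0.50 (edgeR adjusted p 2.5e-14). Timm13, which pairs with the Timm8 proteins, had a mean of 40.0 ± 14.8 FPKM in Lysfree against 77.2 ± 7.20 in Differentiated cells, Lysfree 1 being the lowest at 23.0. It was called higher in Lysfree than in Undifferentiated cells only without Lysfree 1, at 0.46 (edgeR adjusted p 2.2e-08). Timm10b, a part of the carrier translocase, was at 0.996 to 2.6 FPKM throughout and fell by 0.85 on the log2 scale from Differentiated to Lysfree cells (edgeR adjusted p 7.0e-04).

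In the carrier translocase, Timm22 and Timm29 were both higher in Lysfree than in Undifferentiated cells and changed in opposite directions against Differentiated cells. Timm22, its channel, had means of 10.1 ± 0.687, 22.7 ± 1.21 and 13.8 ± 0.136 FPKM, and fell by 0.66 on the log2 scale from Differentiated to Lysfree cells (edgeR adjusted p 9.6e-06). Timm29, a subunit found in animals, measured 13.6, 14.1 and 12.9 FPKM in Undifferentiated, 14.9, 13.8 and 15.96 in Differentiated and 18.8, 17.7 and 16.1 in Lysfree libraries. Every Lysfree library lay above every library of the other groups, though by little. The log2 fold change was 0.42 ± 0.11 against Undifferentiated cells (edgeR adjusted p 0.0028) and 0.30 ± 0.10 against Differentiated cells (edgeR adjusted p 0.026). The latter was lost without Differentiated 1, Differentiated 2 or Lysfree 2 (adjusted p up to 0.15), and with either limma fit (adjusted p 0.082 and 0.080).

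In the presequence translocase, the channel and the receptor rose and one of the Timm17 paralogs did not. Timm23, the channel, had means of 21.4 ± 1.88, 64.6 ± 6.96 and 39.1 ± 8.32 FPKM, and Timm50, the receptor that passes leaders to it, 13.9 ± 1.33, 49.7 ± 0.795 and 21.98 ± 1.65. For both, each group of libraries was separate from the others. Timm50 fell by 1.11 on the log2 scale between Differentiated and Lysfree cells (edgeR adjusted p 3.6e-09). Timm17a, a core subunit with a short-lived protein, measured 7.04, 7.16 and 7.10 FPKM in Undifferentiated, 19.4, 18.1 and 21 in Differentiated and 9.85, 9.75 and 9.21 in Lysfree libraries, again with no overlap. Timm17b, encoded on the X chromosome and able to take its place, measured 11.9, 14.9 and 13.8 FPKM in Undifferentiated, 14.0, 15.1 and 16 in Differentiated and 10.9, 14.0 and 15.9 in Lysfree libraries. All 3 groups of Timm17b overlapped, and none of its comparisons was called, except that it was higher in Differentiated cells by 0.21 when Undifferentiated 2 was left out (edgeR adjusted p 0.023). Timm21, a coupling subunit, rose by 0.60 ± 0.094 with the cocktail and was not called between Lysfree and Differentiated cells, at -0.30 ± 0.12 (edgeR adjusted p 0.066). This stood at the threshold: it was called lower with DESeq2, RLE size factors, either low-count filter, all 9 libraries in 1 fit or either limma fit (adjusted p 0.024 to 0.0496), and without Lysfree 1 (-0.42). Against Undifferentiated cells it was called higher only with library totals (0.35) or all 9 libraries in 1 fit (0.32).

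In the import motor the paralogs Grpel1 and Grpel2 changed in opposite directions when lysine was left out. Grpel1 (ENSMUSG00000029198, chr5:36464998-36474080), the main nucleotide exchange factor of mitochondrial Hsp70, stood at 15.2, 17.6 and 15.5 FPKM in Undifferentiated, 63.6, 59.4 and 65.5 in Differentiated and 18.5, 20.8 and 21.2 in Lysfree libraries. Grpel2 (ENSMUSG00000024580), its paralog, stood at 7.44, 6.60 and 6.73 FPKM in Undifferentiated, 9.56, 9.66 and 9.52 in Differentiated and 16.2, 13.9 and 14.3 in Lysfree libraries. Neither gene's groups overlapped, but the Lysfree libraries were near the undifferentiated level for Grpel1 and the highest of all for Grpel2. Between Lysfree and Differentiated cells the log2 fold change was -1.58 ± 0.094 for Grpel1 (edgeR adjusted p 1.3e-11) and 0.69 ± 0.10 for Grpel2 (edgeR adjusted p 1.1e-05). The Grpel2 difference passed the test in all 15 alternatives, between 0.57 and 0.76. Against Undifferentiated cells the rise of Grpel1, 0.37 ± 0.11, was lost without Undifferentiated 3 (edgeR adjusted p 0.069). Hspa9, the Hsp70 itself, was among the most abundant members at 258 ± 5.32, 417 ± 3.86 and 339 ± 10.7 FPKM, and its fall between Differentiated and Lysfree cells was small, -0.23 ± 0.070 (edgeR adjusted p 0.011), and lost without Differentiated 1 (adjusted p 0.073) or with libraries scaled by their totals alone (-0.16, adjusted p 0.079). Timm44, which tethers Hsp70 to the channel, had 26.6 ± 1.51, 54.8 ± 2.21 and 25.6 ± 2.79 FPKM, and its Lysfree libraries overlapped the Undifferentiated ones. Pam16 and the J protein Dnajc19, which control the Hsp70 cycle, fell by 0.83 and 0.56 on the log2 scale from Differentiated to Lysfree cells.

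After import the leader is removed and some proteins are inserted from the matrix. Pmpca, the subunit of the processing peptidase that binds leaders, measured 14.7, 14.4 and 14.5 FPKM in Undifferentiated, 34.7, 37.0 and 36.7 in Differentiated and 19.0, 18.4 and 16.7 in Lysfree libraries. Pmpcb, the catalytic subunit, measured 13.1, 14.2 and 13.0 FPKM in Undifferentiated, 28.8, 26.4 and 29.9 in Differentiated and 15.8, 14.2 and 14.5 in Lysfree libraries. Both were separated between Differentiated and Lysfree cells, at -0.94 ± 0.091 and -0.87 ± 0.092 on the log2 scale (edgeR adjusted p 2.6e-08 and 9.7e-08). Against Undifferentiated cells the Lysfree libraries of Pmpca were separate and those of Pmpcb overlapped. Oxa1l (chr14:54360834-54369673), the insertase of the inner membrane, measured 16.6, 17.9 and 18.5 FPKM in Undifferentiated, 21.8, 20.4 and 22.1 in Differentiated and 13.4, 10.5 and 11.52 in Lysfree libraries. It was the only member called lower in Lysfree than in Undifferentiated cells, at -0.54 ± 0.11 (edgeR adjusted p 1.5e-04), and its groups did not overlap in any comparison. Without Undifferentiated 1 Tomm7 joined it, and without Lysfree 2 both Tomm7 and Tomm40l did, the latter at -0.69 (edgeR adjusted p 0.011).

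In folding, Hspd1 had the largest rise of any member with the cocktail and the largest fall without lysine, and its partner Hspe1 fell little. Hspd1 measured 215, 203 and 213 FPKM in Undifferentiated, 1128, 1115 and 1108 in Differentiated and 339, 348 and 342 in Lysfree libraries, and it was the most abundant member in Differentiated cells. The rise with the cocktail was 2.38 ± 0.046 on the log2 scale, a 5.21-fold change. The edgeR fit of this comparison used a single common spread for all genes, which makes its p-values too small, and with low genes filtered out first the edgeR adjusted p was 1.6e-13. Between Differentiated and Lysfree cells Hspd1 fell by 1.64 on the log2 scale (edgeR adjusted p 6.7e-14). The promoter window of Hspe1 largely overlaps that of the Hspd1 start at position 55087932, and hardly that of the further Hspd1 start. Hspe1 measured 83.5, 112 and 91.3 FPKM in Undifferentiated, 305, 282 and 318 in Differentiated and 255, 235 and 239 in Lysfree libraries. Its Lysfree libraries lay close below the Differentiated ones and far above the Undifferentiated ones. The log2 fold change was 1.39 ± 0.11 against Undifferentiated cells (edgeR adjusted p 1.1e-12) and -0.25 ± 0.083 against Differentiated cells (edgeR adjusted p 0.021). The small fall against Differentiated cells did not pass the test without Differentiated 1, Differentiated 3, Lysfree 2 or Lysfree 3 (adjusted p up to 0.14), or when libraries were scaled by their totals alone (-0.17, adjusted p 0.11). Exons of the 2 genes share 112 bases, or 4.24% of Hspd1 and 7.60% of Hspe1, and a processed copy, Hspd1-ps3, drew 151 to 788 counts per library.

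The proteases differed from the chaperonin. Lonp1, the main protease of the matrix, had means of 106 ± 0.767, 185 ± 7.14 and 142 ± 13.5 FPKM and fell by 0.31 on the log2 scale from Differentiated to Lysfree cells (edgeR adjusted p 0.0052). Clpp, the proteolytic chamber that works with Clpx, measured 40.9, 47.8 and 41.5 FPKM in Undifferentiated, 64.2, 63.7 and 60.2 in Differentiated and 61.5, 80.6 and 81.6 in Lysfree libraries. Lysfree 1 lay within the Differentiated range and the other Lysfree libraries above it. The log2 fold change was 0.83 ± 0.12 against Undifferentiated cells (edgeR adjusted p 4.3e-07) and 0.31 ± 0.11 against Differentiated cells (edgeR adjusted p 0.027). The latter passed without Lysfree 1 and was lost when any one of the other 5 libraries was left out (adjusted p up to 0.12). It was also lost with DESeq2, either low-count filter or limma (adjusted p 0.058 to 0.20).

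Ratios between partners within one library do not depend on how libraries are scaled, and 7 pairs were compared in 3 contrasts each, with exact permutation tests on log2 ratios (two-sided). With 3 libraries against 3 the smallest p this test can give is 0.1, and adjusted over the 21 tests it is 0.124, so none can pass 0.05. The FPKM ratio Hspd1:Hspe1 was 2.24 ± 0.394 in Undifferentiated, 3.71 ± 0.236 in Differentiated and 1.41 ± 0.0783 in Lysfree cells (± SD, n = 3). Thus Hspd1 outweighed Hspe1 least in Lysfree cells, and no library of one group overlapped another group (exact p 0.1 for each contrast). Grpel1:Grpel2 went the same way, at 2.34 ± 0.309, 6.56 ± 0.371 and 1.37 ± 0.203, also with no overlap (exact p 0.1 each).

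The FPKM ratio Timm17a:Timm17b was 0.529 ± 0.0556 in Undifferentiated, 1.30 ± 0.0947 in Differentiated and 0.728 ± 0.165 in Lysfree cells. Its place above or below 1 depends on the gene lengths used, 7893 and 2557 bases. In counts Timm17a exceeded Timm17b in every library. Lysfree and Undifferentiated libraries overlapped in this ratio (exact p 0.2) and Differentiated ones stood above both (exact p 0.1). Timm8a1:Timm8b was 0.186 ± 0.0163, 0.485 ± 0.0585 and 0.590 ± 0.0711, with Lysfree and Differentiated libraries overlapping (exact p 0.2) and both above the Undifferentiated ones. Mtx1:Mtx2 fell from 0.318 ± 0.0137 to 0.116 ± 0.00736 and was 0.216 ± 0.0541 in Lysfree cells, with 3 separate groups (exact p 0.1 each). Tomm40:Tomm40l was 8.99 ± 1.51, 19.4 ± 0.447 and 18.7 ± 6.11, the last with a wide spread over libraries (exact p 0.7 against Differentiated cells). Pmpca:Pmpcb was 1.08 ± 0.0619, 1.28 ± 0.105 and 1.22 ± 0.0700.

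**Figure D3:**
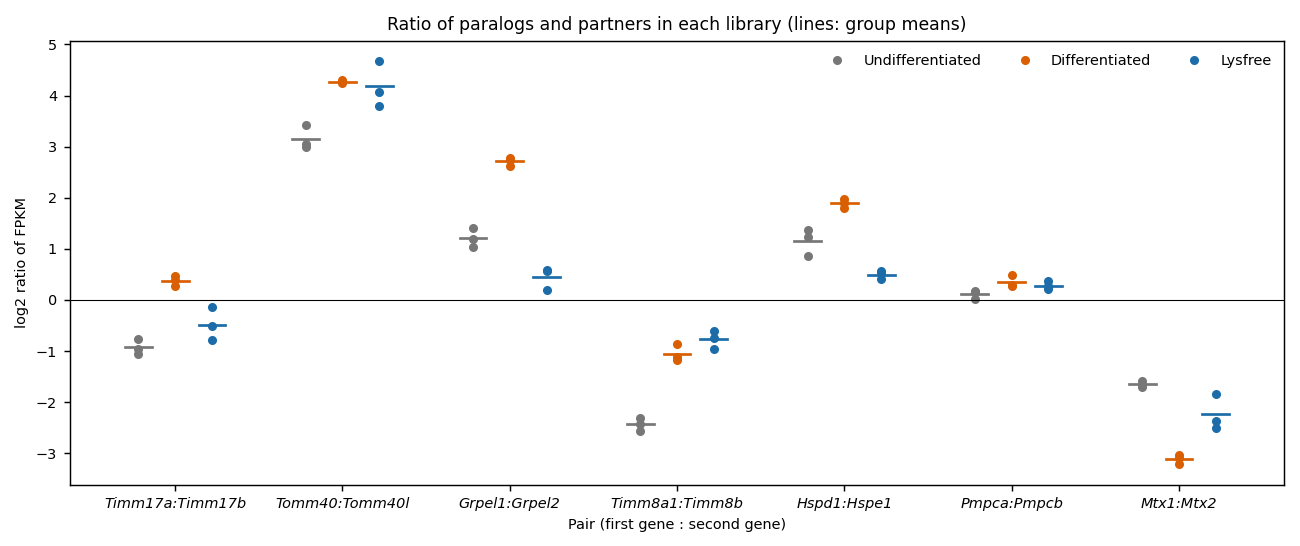
Log2 ratio of FPKM between the genes of 7 pairs in each of the 9 libraries, with a line at each group's mean. The 3 groups are separate for Hspd1:Hspe1, Grpel1:Grpel2 and Mtx1:Mtx2, and Lysfree points are the lowest for the first of these, with a mean ratio of 1.41.

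Short genes of the set were low in Lysfree 1. In log2 CPM, the 12 members under 2000 bases departed from the mean of Lysfree 2 and 3 by a median of -0.42, from -1.10 for Tomm7 to 0.31 for Timm21. The 27 longer members departed by a median of 0.00, from -1.05 for Tomm40l to 0.41 for Tomm70a. Over all genes at 1 CPM the medians were -0.22 for 2236 short and 0.06 for 10472 longer ones, so the short genes of the whole library were low. Timm13 (1371 bases) and Timm10 (815 bases) were the other members lower by over 0.8. The calls against Differentiated cells for Tomm7, Timm13, Tomm5 and Gfer include these low values of Lysfree 1, and their log2 fold changes without it were -0.51, -0.62, -0.74 and -0.48, each still called lower (edgeR adjusted p at most 3.5e-09). In Undifferentiated 2 the short members were high against the mean of Undifferentiated 1 and 3. Their median was 0.20, from 0.04 to 0.89 for Tomm7, and that of the longer members 0.07. Comparisons with Undifferentiated cells include these values.

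**Figure D4:**
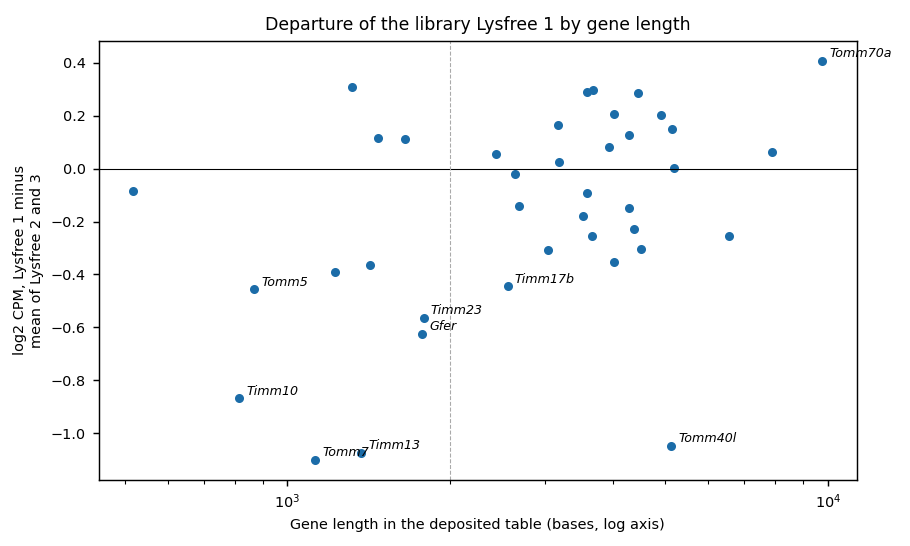
Difference in log2 CPM between Lysfree 1 and the mean of Lysfree 2 and 3 for the 39 members, against gene length in bases on a log axis, with a dashed line at 2000 bases. The lowest short genes are Tomm7 at -1.10 and Timm13, and among longer genes Tomm40l stands apart at -1.05.

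Most mitochondrial genes outside the rule were also lower in Lysfree than in Differentiated cells, and most cytosolic folding genes were not. For each list below, the share of all genes at 1 CPM that were higher with the cocktail was 38.6%. Between Lysfree and Differentiated cells 30.4% of them were lower and 34.6% higher. Of 77 mitochondrial ribosomal protein genes at 1 CPM, 70 rose with the cocktail, and 56 were lower and 3 higher in Lysfree than in Differentiated cells, with a median log2 fold change of -0.67. Of 80 nuclear-encoded subunits of the respiratory chain and ATP synthase, 73 rose, and 70 were lower and 2 higher, with a median of -1.04. The import genes, at -0.66, stood near the first of these lists. Among 13 proteases and peptidases outside the rule, 7 were lower and 2 higher. These included Afg3l2, a subunit of the inner membrane AAA protease, at 25.5 ± 0.637, 71.5 ± 1.59 and 34.6 ± 2.27 FPKM. Clpx, the unfoldase that feeds Clpp, had 11.1 ± 0.643, 29.2 ± 1.38 and 15.3 ± 1.58 FPKM and fell by 0.87 on the log2 scale between Differentiated and Lysfree cells (edgeR adjusted p 3.1e-07), where Clpp had 0.31 ± 0.11.

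Of 12 co-chaperones and scaffolds, 8 were lower and 1 higher in Lysfree than in Differentiated cells. Dnajc15, a relative of the motor protein Dnajc19, fell by 1.44 on the log2 scale (edgeR adjusted p 1.2e-09), and Phb2, a prohibitin of the inner membrane, by 1.29 (edgeR adjusted p 9.3e-10). Of 13 outer membrane and cristae genes, 9 were lower and none higher. Vdac1, the porin that Samm50 inserts, had 81.8 ± 2.07, 205 ± 5.73 and 84.2 ± 5.15 FPKM, and Apoo and Chchd3, subunits of the cristae complex MICOS, fell by 1.39 and 1.25 on the log2 scale. Of 11 cytosolic chaperones that hand precursors to TOM, 5 were higher, a share near the 34.6% of all genes at 1 CPM, and none lower, where 30.4% of all genes were. Their median was 0.22, and all 11 were higher than in Undifferentiated cells, where 32.2% of all genes at 1 CPM were. Hsph1, an Hsp110 chaperone, had 13.7 ± 0.590, 28.4 ± 1.68 and 110.1 ± 15.6 FPKM, a log2 fold change of 2.02 ± 0.097 between Lysfree and Differentiated cells (edgeR adjusted p 4.2e-13). Hspa8, the constitutive Hsp70, had 225 ± 10.9, 322 ± 7.51 and 478 ± 60.1. Of 14 subunits of the cytosolic chaperonin TRiC and of prefoldin, 3 were higher and 2 lower, with a median of -0.04.

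Among 15 regulators of mitochondrial genes and of mitochondrial stress responses, 7 were higher and 3 lower in Lysfree than in Differentiated cells, not far from the 34.6% and 30.4% of all genes at 1 CPM. Ppargc1b, a coactivator of mitochondrial genes, had 0.679 ± 0.0434, 13.3 ± 0.695 and 1.03 ± 0.210 FPKM, and Esrra, a nuclear receptor it works with, 17.3 ± 1.77, 44.6 ± 1.79 and 14.8 ± 4.88. Their log2 fold changes between Lysfree and Differentiated cells were -3.63 ± 0.15 (edgeR adjusted p 3.7e-14) and -1.52 ± 0.17 (edgeR adjusted p 1.5e-07). Pprc1, a related coactivator, went the other way, by 1.02 ± 0.094 (edgeR adjusted p 1.1e-08). So did Ppargc1a, a further one of this family, named after its values were seen. It had 1.99 ± 0.253, 3.01 ± 0.0555 and 5.75 ± 1.24 FPKM. Its log2 fold change between Lysfree and Differentiated cells was 0.995 ± 0.14 (edgeR adjusted p 3.3e-06). Nrf1, the factor whose core was searched in the promoters, was named after its values were seen: it had 2.91 ± 0.0441, 3.28 ± 0.142 and 5.28 ± 0.499 FPKM and was higher in Lysfree than in Differentiated cells by 0.75 ± 0.11 (edgeR adjusted p 6.5e-06).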

How the data were processed

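Cells were compared as 3 groups of 3 libraries. Per the labels, poly(A) RNA was sequenced, and the submitters' processing notes name HISAT2 2.0.5, featureCounts 1.5.0-p3 and the build mm10. Gene annotation and strand setting are not given in the sources used here. The authors deposited raw counts per gene and a table of FPKM, which equalled count over length and library total times a factor of 0.932 to 1.04 per library. Counts were tested here with edgeR 4.0.16 in R 4.3.3 (TMM scaling, quasi-likelihood F test, genes with any count in the 2 groups compared, Benjamini-Hochberg over all genes tested, threshold 0.05). DESeq2 1.42.0, limma 3.58.1 and other settings were alternatives. The tests were checked on data simulated for Lysfree against Differentiated cells, with the same spread for every gene and no deviating library. That check does not cover the departure of Lysfree 1 or the other comparisons. FPKM were used for levels and within-library ratios. The members and gene lists were chosen with earlier results of these data known. Values per library were given for the 5 members with the largest rise and the 5 with the largest fall in each comparison among those called at a mean of at least 1 CPM, and for 7 partner or paralog pairs. From each further list up to 3 genes with the largest change between Lysfree and Differentiated cells could be named. Exon overlaps came from GENCODE vM21, in which all 42 gene IDs were found, and promoter sequences from RefSeq (GRCm38.p6). Library depth was 15880144 to 21806693 counts. Levels near 0 were read as not detectable in these counts. For Tomm6, whose exonic bases are mostly shared with other genes, this does not mean that its RNA was absent.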

Additional observations from a re-analysis of the deposited data

How the results depend on the processing

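Each count was recomputed with DESeq2, with DESeq2-type (RLE) size factors or library totals in edgeR, with low-count filters, with all 9 libraries in 1 fit, with limma on log2(FPKM + 1) and log2(FPKM + 0.1), and without each library. Members higher in Differentiated than in Undifferentiated cells numbered 33 to 36, and members lower in Lysfree than in Differentiated cells 29 to 32. Members higher in Lysfree than in Undifferentiated cells numbered 22, with 20 to 23 under the other methods and settings and 19 to 25 with a library left out (19 without Undifferentiated 3, 25 without Lysfree 1). Higher members in Lysfree against Differentiated cells numbered 4, and 3 with RLE size factors, filterByExpr or the replicate block, 2 with DESeq2, 2 with at least 10 counts in every library, 1 with either limma fit and 1 to 5 with a library left out. Members lower in Lysfree than in Undifferentiated cells numbered 1, and 1 to 3 with a library left out. Members at least 2-fold lower in Lysfree than in Differentiated cells numbered 7, and 11 with limma on log2(FPKM + 0.1). Shares of all genes called under these alternatives are not given, so the ranges show only how far the member counts moved. The log2 ratio Pmpca:Pmpcb differed by 0.24 between Differentiated and Undifferentiated cells, and by 0.12 to 0.30 with 1 library of each group left out, and by 0.17 (0.073 to 0.23) between Lysfree and Undifferentiated cells. The cause of these shifts was not tested.

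Among the single genes, the differences that changed sign were not called with all libraries. They lay between Lysfree and Undifferentiated cells, apart from Timm17b between Lysfree and Differentiated cells (-0.078, and -0.21 to 0.038 with a library left out). Against Undifferentiated cells Timm17b (0.054) was -0.0071 with at least 10 counts in every library, -0.00483 and -0.00589 with limma, and -0.076 to 0.16 with a library left out (-0.0298 without Undifferentiated 1). Timm44 (-0.011) was 0.020 with library totals and -0.087 to 0.044 with a library left out (0.014 without Undifferentiated 1, 0.011 without Undifferentiated 2). Tomm7 ran from -0.42 to 0.14 (0.031 without Lysfree 1), Tomm20 from -0.00499 to 0.13, and Esrra from -0.33 to 0.047.

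The replicate numbers did not pair the libraries: same-numbered libraries deviated together with r from -0.119 to 0.134 across genes. With the replicate block, 35 members were higher in Differentiated than in Undifferentiated cells, 22 were higher and 1 lower in Lysfree than in Undifferentiated cells, and 31 were lower and 3 higher in Lysfree than in Differentiated cells. The call the block ended was that of Tomm34 in the last comparison (0.30, edgeR adjusted p 0.073).

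With 3 libraries a group, small differences such as those of Tomm34, Clpp, Timm29 and Hspe1 between Lysfree and Differentiated cells hang on single libraries. Library totals alone moved the median of all genes at 1 CPM in that comparison to 0.12. Levels near 0 (Tomm20l, Timm8a2) cannot be compared at this depth. Nor can that of Tomm6, with 84.2% of its exonic bases shared with other genes. The p-values of the differentiation comparison rest on a common spread and are too small to rank genes. In the other comparisons they also depend on whether low genes are kept. With low genes filtered out, Timm8a1 in Lysfree against Undifferentiated cells had an edgeR adjusted p of 2.0e-05 rather than 2.3e-12. Between Lysfree and Differentiated cells the value was 1.6e-07 rather than 6.7e-14 for Hspd1, and 0.011 rather than 0.021 for Hspe1.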
